A study of Mus musculus with 18 samples.

Results

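The interleukin-1 (IL-1) family genes described here were 10 genes given by name: the ligands Il1a, Il1b, Il18 and Il33, the receptor antagonist Il1rn, and the receptor genes Il1r1, Il1r2, Il1rap, Il18rap and Il1rl1. They were matched by gene symbol in a count table of 30583 genes, and 10 of 10 were found and passed the filter on low counts. RNA from the left ventricle was sequenced in 18 mice, 3 in each of 6 groups. All were 12-week-old male mice of the strain the labels spell C57BL/6JR, with no transgene or drug treatment named beyond the anaesthetics pentobarbital and isoflurane. In 5 groups a myocardial infarction was made by tying the left anterior descending artery of the heart, and the tissue was taken after 10 min or after 1, 6, 24 or 72 h. In the sham group, the suture was passed but not tied. The sham group stands for all times, so time after the operation itself has no control of its own.

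Libraries held 18.2 to 25.1 M (mega) counts, 1 library per mouse. The labels name cardiomyocytes as the cell type and myocardial tissue of the infarcted ventricle as the source, and no separation of cells is described. Markers of other cells were present in every sham library: the summed level of 12 monocyte and macrophage markers was 315 to 360 CPM (counts per M counts, after TMM scaling), and that of 7 endothelial markers 1320 to 1410 CPM. Cardiomyocyte markers (10 genes) summed to 83600 to 89600 CPM in sham and 20900 to 28000 CPM at 72 h. The values are therefore those of whole tissue, in which more cells of a type and more RNA per cell cannot be told apart. Nothing beyond the labels shows that the 3 mice of a group are independent litters or operation days, so the p-values measure the spread between these libraries.

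IL-1 alpha (Il1a) and IL-1 beta (Il1b) bind the signalling receptor IL-1R1 (Il1r1), which then recruits the accessory protein IL-1RAcP (Il1rap). Myd88 and the IRAK kinases carry the signal to NF-kB and MAP kinases. Il1rn occupies IL-1R1 without signalling, and the decoy receptor IL-1R2 (Il1r2) binds IL-1 but lacks a signalling domain. IL-33 (Il33), a nuclear alarmin of stromal and endothelial cells, signals through ST2 (Il1rl1) with IL-1RAcP, whereas IL-18 signals through Il18r1 with Il18rap. IL-1 beta and IL-18 are made as precursors that caspase-1 cuts in inflammasomes. In infarcted hearts this family is known for the early inflammatory response that draws in neutrophils and monocytes and for its later effect on repair.

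The 10 genes lie in 4 single locations and a pair of clusters of the mouse genome (GENCODE M21, on GRCm38). The receptor genes Il1r2 (chr1:40074079-40125231), Il1r1 (chr1:40225080-40317257), Il1rl1 (chr1:40429570-40465415) and Il18rap (chr1:40515362-40551705) lie on the plus strand of chromosome 1 together with Il1rl2 and Il18r1, 6 receptor genes within 478 kb. The ligand genes Il1a (chr2:129299610-129309972) and Il1b (chr2:129364570-129371139) lie 54.6 kb apart on the minus strand of chromosome 2, and Il1rn (chr2:24336853-24351494) is on the plus strand of the same chromosome. The others are Il18 (chr9:50554827-50581840), Il1rap (chr16:26581704-26730117) and Il33 (chr19:29925114-29960718), all on the plus strand. Each level below is summed over all annotated exons of the gene, from 1031 bases for Il18 to 11360 bases for Il1rap, so isoforms are not separated. Among the genes that overlap a member on the opposite strand, Gm14023 at Il1a had 1 to 20 counts per library, Il1bos at Il1b 0 to 23 and Bco2 at Il18 1 to 43. Strand use in counting is not stated, so, where the counts of Il1a, Il1b and Il18 are as low as these, reads of the partners cannot be told apart from their own.

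The 250 bases before the start site are shown for genes that moved together in the libraries, Il1b with Il18rap and Il33 with Il1r1, and for Il1a, the neighbour of Il1b (RefSeq, GRCm38.p6, 5′ to 3′ on the gene's own strand). Capitals mark each match, on either strand, to AP-1 (TGANTCA), PU.1 (GAGGAA), CRE (TGACGTCA) or the NF-kB consensus. For Il33 and Il1r1 the start listed farthest upstream is shown.
Il1b, chr2:129371140-129371389, minus strand: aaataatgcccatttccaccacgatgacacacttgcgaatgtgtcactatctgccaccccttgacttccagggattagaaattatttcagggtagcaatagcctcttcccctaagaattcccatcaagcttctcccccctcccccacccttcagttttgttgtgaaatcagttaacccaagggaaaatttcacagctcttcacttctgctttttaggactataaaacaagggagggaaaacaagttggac
Il18rap, chr1:40515112-40515361, plus strand: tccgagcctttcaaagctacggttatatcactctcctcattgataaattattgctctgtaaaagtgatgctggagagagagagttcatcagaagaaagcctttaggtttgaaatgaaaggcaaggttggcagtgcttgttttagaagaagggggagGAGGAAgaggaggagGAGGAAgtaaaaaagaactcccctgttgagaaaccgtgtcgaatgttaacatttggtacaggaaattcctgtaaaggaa
Il1a, chr2:129309973-129310222, minus strand: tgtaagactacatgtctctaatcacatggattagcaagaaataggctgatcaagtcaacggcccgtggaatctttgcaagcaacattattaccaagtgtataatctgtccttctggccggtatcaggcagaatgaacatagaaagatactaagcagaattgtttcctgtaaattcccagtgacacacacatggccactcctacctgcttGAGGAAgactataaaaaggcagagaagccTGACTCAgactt
Il33, chr19:29924863-29925112, plus strand: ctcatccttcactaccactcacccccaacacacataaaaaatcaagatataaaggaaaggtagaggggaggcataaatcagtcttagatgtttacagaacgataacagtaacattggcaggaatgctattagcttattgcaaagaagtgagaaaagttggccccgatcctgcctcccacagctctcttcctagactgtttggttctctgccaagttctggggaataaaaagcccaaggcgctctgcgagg
Il1r1, chr1:40224830-40225079, plus strand: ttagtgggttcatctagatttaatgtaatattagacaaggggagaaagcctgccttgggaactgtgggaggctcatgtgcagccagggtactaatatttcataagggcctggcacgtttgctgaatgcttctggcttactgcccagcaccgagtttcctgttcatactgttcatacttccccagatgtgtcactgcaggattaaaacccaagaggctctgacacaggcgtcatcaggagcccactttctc
The Il18rap window held 2 PU.1 matches, 94 to 89 and 79 to 74 bases before the start. The Il1a window held an AP-1 match 12 to 6 bases before the start and a PU.1 match 41 to 36 bases before it. No match to these 4 motifs stood in the windows of Il1b, Il33 and Il1r1 shown here, which says only that these letters are absent from them. Over 32536 mouse windows of the same length, 6.7% held AP-1, 23.4% PU.1, 1.6% CRE and 7.3% the NF-kB consensus. In the other windows of the 10 genes, 15 in all, an AP-1 match stood 141 to 135 bases before an Il1rn start and an NF-kB match 232 to 223 bases before the downstream Il1r1 start. These matches are descriptions of the letters only.

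No member was called against sham at 10 min or 1 h, and 9 of the 10, all but Il1rl1, were called higher at 6, 24 or 72 h. The share of all genes called higher at any of these 3 times was not counted. An F test of all 5 times against sham called 78.4% of all genes in either direction, so a call at some time is common. Members were compared with sham by edgeR's quasi-likelihood test, fitted to 16311 genes, and a gene was called at a Benjamini-Hochberg adjusted p under 0.05 over all of them. At 10 min 0 of 10 members were called (0.0736% of all genes) and at 1 h 0 of 10 (0.294% of all genes). DESeq2, fitted to the same 18 libraries, called 0 of the 9 members it tested at both times (58 and 93 of 30576 genes). At an unadjusted edgeR p under 0.05 the counts were 1 (Il33) and 0 (1144 and 899 of 16311 genes). These are not separate evidence, since the same libraries set the spread. The libraries did not overlap with sham for Il1r2 (higher) and Il33 (lower) at 10 min. Nor did they at 1 h for Il1a, Il1b, Il1r2 (higher) and Il1r1 (lower). The share of all genes without such overlap was not counted, so these are descriptions only. Il1a and Il1r2 had at most 8 counts in any of these libraries. In a fit of the sham and 1 h libraries alone, in which 5 members passed the filter, Il1b was called at 1 h (log2 fold change 1.82; adjusted p = 0.0178 by edgeR). At 6 h 7 of 10 were called higher and none lower (28.4% of all genes were called, 16.3% higher). At 24 h it was 7 higher (43.8% called, 23.7% higher), and at 72 h 8 higher (66.4% called, 34.2% higher), with none lower at either time. The median log2 fold change of the 10 members was 0.15, 0.39, 2.78, 3.53 and 3.01 at the 5 times in order, and that of all genes lay between -0.01 and 0.03. Scaling by library totals in place of TMM moved the median of all genes to -0.12, 0.2 and 0.61 at 6, 24 and 72 h and made 40.6%, 75.5% and 79.9% of the calls increases in place of 57.2%, 54% and 51.4%. It left 6, 9 and 9 members higher and none lower (1914, 5558 and 9472 of all 16311 genes were higher). Without replicate 1 at 6 h and replicate 3 at 24 h together, 8, 6 and 9 members were called at these times. Of all 16678 genes tested in that fit, 3921, 5916 and 11525 were called.

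**Figure D1:**
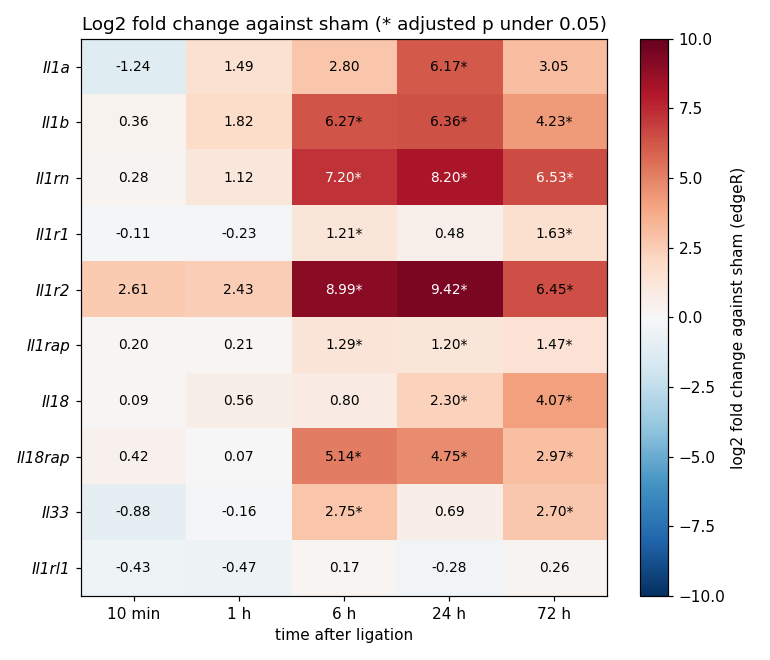
Fitted log2 fold change of each of the 10 members (rows) against sham at each time after ligation (columns), n = 3 mice per group; an asterisk marks an edgeR adjusted p under 0.05. Il1b, Il1rn, Il1r2, Il1rap and Il18rap were called at 6, 24 and 72 h, Il1r1 and Il33 at 6 and 72 h, Il18 at 24 and 72 h, Il1a at 24 h, and Il1rl1 at no time.

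The times at which members were called differed. Il1b, Il1rn, Il1r2, Il18rap and Il1rap were called against sham at 6, 24 and 72 h. Il1r1 and Il33 were called at 6 and 72 h, with an interval at 24 h in which both were lower, though above sham in every library. Il18 was called at 24 and 72 h, Il1a at 24 h, and Il1rl1 at no time. An F test of all 5 times against sham called 9 of 10 members (78.4% of all genes), the exception being Il1rl1 (adjusted p = 0.262). With library totals in place of TMM, or with limma on log2(FPKM + 0.1), that test called 10 of 10, Il1rl1 included (13642 and 13720 of 16311 genes).

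From one time to the next, the steps were tested as contrasts in the same fit. Between 10 min and 1 h, 0 members were called (0.307% of all genes) by edgeR. DESeq2 called 0 of the 9 members it tested (127 of 30576 genes). At an unadjusted edgeR p under 0.05 the count was 0 (1212 of 16311 genes). Between 1 and 6 h, 6 members rose: Il1b, Il1rn, Il1r1, Il1r2, Il18rap and Il33 (24.5% of all genes called, 14.5% higher). Between 6 and 24 h, Il1a and Il18 rose and Il1r1 and Il33 fell (27.8% called, 14.2% higher and 13.7% lower). Between 24 and 72 h, Il1r1, Il18 and Il33 rose and Il1a, Il1r2 and Il18rap fell (50.5% called, 24.4% higher and 26.1% lower).

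Il1b, which encodes the secreted pyrogenic ligand, had 0.455, 0.519 and 0.489 CPM in the 3 sham libraries (replicates 1 to 3 in order, as in all such lists here) and 0.996, 0.504 and 0.447 CPM at 10 min. It had 2.41, 1.66 and 1.05 CPM at 1 h and 64.5, 38.8 and 11.2 CPM at 6 h. The 1 h libraries lay above all sham libraries, with means of 1.71 and 0.487 CPM, and the difference was not called in the fit of all libraries (log2 fold change 1.82 with SE 1.65 and an edgeR adjusted p of 0.99), though it was in that of the sham and 1 h libraries alone. At 6 h the level was higher than in sham by a log2 fold change of 6.27 (SE 1.32; adjusted p = 0.00368 by edgeR), and without replicate 1 the mean was 25 CPM in place of 38.2 and the call held. At 24 h the libraries had 8.85, 4.63 and 109 CPM, so the mean of 40.7 ± 58.8 CPM (SD, n = 3) rested on replicate 3, and without it the mean was 6.74 CPM and the log2 fold change 3.77 in place of 6.36, still called. At 72 h the libraries had 6.94, 11.7 and 9.01 CPM (log2 fold change 4.23 with SE 1.35 and an edgeR adjusted p of 0.0141). All libraries from 6 h on lay above all earlier ones. The rise from 1 to 6 h (4.45) was not called without replicate 3 at 1 h (4.21, edgeR adjusted p = 0.0519).

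Il1a, which encodes the cell-associated ligand that dying cells release, stayed near the limit of detection in all but 1 library. It had 1 count in each sham library, 0, 0 and 1 at 10 min, 2, 2 and 4 at 1 h, 8, 8 and 5 at 6 h, and 13, 22 and 8 at 72 h. At 24 h the counts were 7, 7 and 222, or 0.302, 0.248 and 11.4 CPM. The 24 h mean of 4 CPM was called higher than sham (log2 fold change 6.17 with SE 1.51 and an edgeR adjusted p of 0.00437). Without replicate 3 the mean was 0.275 CPM and the log2 fold change 2.36 (edgeR adjusted p = 0.0264), and the rise from 6 to 24 h of 3.37 became -0.44 and the fall from 24 to 72 h of 3.11 became 0.69, neither called. The ratio of summed counts per M to sham was 7.63 at 6 h (exact 95% interval 2.28 to 40) and 9.2 at 72 h (2.94 to 46.3), where the fit made no call. These intervals, here and below, cover counting error only.

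**Figure D2:**
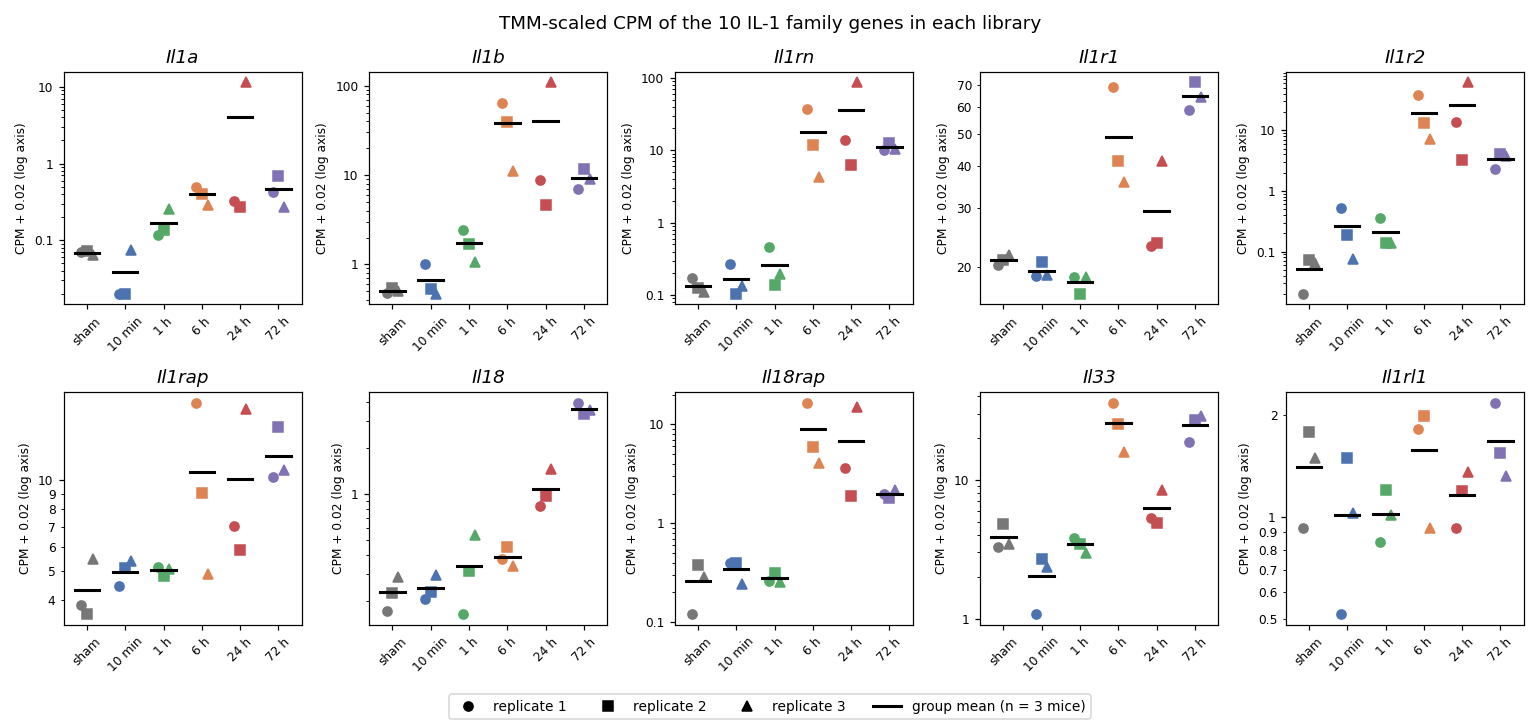
Level of each of the 10 genes in each of the 18 libraries, as TMM-scaled CPM plus 0.02 on a log axis with a range of its own in each panel; symbols are the 3 mice of a group and bars the group means. Replicate 1 at 6 h and replicate 3 at 24 h are the highest of their group for Il1a, Il1b, Il1rn, Il1r1, Il1r2, Il1rap, Il18rap and Il33.

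Il1rn, the receptor antagonist gene, was called at the same times as Il1b. It had 0.152, 0.104 and 0.0888 CPM in sham (3, 2 and 2 counts) and 0.435, 0.118 and 0.175 CPM at 1 h. It had 37.2, 11.6 and 4.31 CPM at 6 h, 13.7, 6.15 and 86.1 CPM at 24 h, and 10.2, 12.5 and 10.5 CPM at 72 h. Sham and 10 min libraries overlapped, and every library from 6 h on lay above them. Summed counts per M were 148-fold those of sham at 6 h (exact 95% interval 71.3 to 368), 268-fold at 24 h (130 to 668) and 97.4-fold at 72 h (47.1 to 243), and each difference was called (edgeR adjusted p = 0.00284, 0.000583 and 0.00157). Without replicate 3 the 24 h mean was 9.92 CPM in place of 35.3, and without replicate 1 the 6 h mean was 7.95 CPM in place of 17.7, and both calls held. The 72 h libraries lay within 10.2 to 12.5 CPM, a narrow range beside the 6 and 24 h groups.

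Il1r2, the decoy receptor gene, had the largest fitted log2 fold change of the 10 members at 6 h (8.99) and 24 h (9.42), against a sham level at the limit of detection. It had 0, 1 and 1 counts in the sham libraries, 8, 4 and 1 at 10 min, and 7, 2 and 2 at 1 h. At 6 h it had 38, 13.2 and 7.14 CPM, at 24 h 13.8, 3.22 and 61.8 CPM, and at 72 h 2.3, 4.02 and 3.69 CPM. The groups from 6 h on did not overlap with the earlier ones. Summed counts per M were 570-fold those of sham at 6 h (exact 95% interval 158 to 4720), 699-fold at 24 h (193 to 5780) and 103-fold at 72 h (28.3 to 854), with edgeR adjusted p = 0.00133, 0.000478 and 0.00805. Single libraries set much of these levels: without replicate 1 the 6 h mean was 10.1 CPM in place of 19.4, and without replicate 3 the 24 h mean was 8.49 CPM in place of 26.3, and both calls held. The fall from 24 to 72 h, by 2.96 on the log2 scale (edgeR adjusted p = 0.0106), was smaller and not called without replicate 3 at 24 h (-1.34, edgeR adjusted p = 0.113).

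The signalling receptor gene Il1r1 had the highest level of the 5 receptor genes per kb of exon in sham, at 3.3 ± 0.114 CPM per kb (SD, n = 3). It had 20.3, 21 and 21.7 CPM in sham and 18.6, 16.6 and 18.7 CPM at 1 h. At 6 h it had 69, 41.3 and 35.8 CPM, at 24 h 23.1, 23.5 and 41.5 CPM, and at 72 h 58.9, 71.1 and 64.4 CPM. The 6, 24 and 72 h libraries lay above all sham libraries, and the level dipped at 24 h. It was 2.32-fold that of sham at 6 h (edgeR adjusted p = 0.000966), 1.39-fold at 24 h (not called, edgeR adjusted p = 0.0942) and 3.09-fold at 72 h (edgeR adjusted p = 8.24e-06). The fall from 6 to 24 h (log2 fold change -0.73 with SE 0.22 and an edgeR adjusted p of 0.0208) was not called without replicate 1 at 6 h (-0.4), replicate 1 at 24 h (-0.57) or replicate 2 at 24 h (-0.59). The rise from 24 to 72 h was 1.15 (SE 0.22, edgeR adjusted p = 0.000391). Without replicate 1 at 24 h, the 24 h difference from sham was called (0.64, edgeR adjusted p = 0.0451).

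Il1rap, the co-receptor shared by the IL-1 and IL-33 receptors, had 3.84, 3.58 and 5.46 CPM in sham, 18, 9.04 and 4.85 CPM at 6 h, 7.03, 5.84 and 17.2 CPM at 24 h, and 10.2, 14.9 and 10.8 CPM at 72 h. Replicate 3 at 6 h lay within the sham range, and the 24 and 72 h libraries lay above it. The level was 2.77-fold that of sham at 72 h (log2 fold change 1.47 with SE 0.43 and an edgeR adjusted p of 0.00687). The calls at 6 h (1.29, edgeR adjusted p = 0.037) and 24 h (1.2, edgeR adjusted p = 0.0344) were close to the threshold. The 6 h call was lost without replicate 1 at 6 h (0.69, edgeR adjusted p = 0.244) or without any of the sham replicates (edgeR adjusted p = 0.109, 0.112 and 0.051 without replicates 1, 2 and 3). The 24 h call was lost without replicate 3 at 24 h (0.57) or sham replicates 1 or 2 (1.13 and 1.09).

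Il33 had a time course with a high level at 6 h, a low level at 24 h and a high level again at 72 h. It had 3.24, 4.82 and 3.42 CPM in sham, 1.06, 2.65 and 2.35 CPM at 10 min, and 3.82, 3.43 and 2.97 CPM at 1 h. It had 36.1, 25.4 and 15.9 CPM at 6 h, 5.31, 4.88 and 8.46 CPM at 24 h, and 18.8, 27.1 and 28.7 CPM at 72 h. The 24 h group overlapped with neither the 6 h nor the 72 h group, and its libraries lay just above those of sham. Il33 was 6.74-fold its sham level at 6 h (edgeR adjusted p = 2.6e-05), 1.61-fold at 24 h (not called, edgeR adjusted p = 0.0984) and 6.51-fold at 72 h (edgeR adjusted p = 1.59e-06). The fall from 6 to 24 h (log2 fold change -2.06 with SE 0.31 and an edgeR adjusted p of 0.000237) and the rise from 24 to 72 h (2.01, SE 0.3, edgeR adjusted p = 4.37e-05) were called, and they stayed called without any 1 library. At 10 min all 3 libraries lay below all sham libraries (log2 fold change -0.88, SE 0.37), which was not called (edgeR adjusted p = 0.641).

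Il1rl1, the gene of the IL-33 receptor ST2 and of its soluble form, was not called in any of the 15 pairs of groups with TMM scaling. It had 0.91, 1.76 and 1.47 CPM in sham, 1.79, 1.96 and 0.905 CPM at 6 h, and 2.15, 1.52 and 1.3 CPM at 72 h. Its log2 fold change from sham was 0.17 at 6 h (SE 0.36, edgeR adjusted p = 0.768) and 0.26 at 72 h (SE 0.35, edgeR adjusted p = 0.517). The 72 h difference was called with library totals in place of TMM (0.84, edgeR adjusted p = 0.0392) and by limma on log2(FPKM + 1) (0.17, adjusted p = 0.0171) and on log2(FPKM + 0.1) (0.61, adjusted p = 0.0388), all without TMM. Each time group overlapped with sham, at 8 to 68 counts per library. The 6 h value was -0.05 without sham replicate 1 and -0.05 without replicate 2 at 6 h. Counts summed over the gene do not separate soluble from membrane-bound ST2.

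Il18, the other ligand that caspase-1 matures, was late. It had 3, 4 and 6 counts in sham (0.152, 0.207 and 0.267 CPM) and 6, 9 and 6 counts at 6 h. It had 0.82, 0.955 and 1.44 CPM at 24 h and 3.97, 3.35 and 3.53 CPM at 72 h. The level at 6 h was not called against sham (log2 fold change 0.8 with SE 0.45 and an edgeR adjusted p of 0.213). It was 4.94-fold that of sham at 24 h (edgeR adjusted p = 0.000158) and 16.8-fold at 72 h (edgeR adjusted p = 1.39e-08). Each late group lay above every library of the group before it. The 12 monocyte and macrophage markers summed to 330 to 570 CPM at 6 h, 698 to 976 CPM at 24 h and 3740 to 4880 CPM at 72 h, and their part in the rise of Il18 was not tested.

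Il18rap, the accessory chain of the IL-18 receptor, kept the early course of Il1b instead. It had 0.101, 0.363 and 0.267 CPM in sham, 16.6, 5.93 and 4.05 CPM at 6 h, 3.58, 1.87 and 15 CPM at 24 h, and 1.96, 1.77 and 2.13 CPM at 72 h. The level was 35.3-fold that of sham at 6 h (edgeR adjusted p = 0.000495), 26.9-fold at 24 h (edgeR adjusted p = 0.000488) and 7.85-fold at 72 h (edgeR adjusted p = 0.00828). Without replicate 3 at 24 h the 24 h mean was 2.73 CPM in place of 6.8, without replicate 1 at 6 h the 6 h mean was 4.99 CPM in place of 8.85, and both calls held. The fall from 24 to 72 h (-1.78, edgeR adjusted p = 0.0269) was not called without replicate 3 at 24 h (-0.48) or without any of the 72 h replicates (-1.78, -1.71 and -1.85). The IL-18 receptor's ligand-binding chain, Il18r1, had 2 counts in each sham library and 6 to 25 at 6 h, 7 to 17 at 24 h and 32 to 110 at 72 h. It was called higher than sham at 6 h (edgeR adjusted p = 0.0315) and 72 h (edgeR adjusted p = 0.000279).

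Il1b, Il1rn, Il1r2 and Il18rap varied between the mice of the 6 h group, and of the 24 h group, in the order of the summed neutrophil markers. Il1a, Il1rap and Il33 had the same order in both groups. The share of all genes in that order was not counted, so this is a description only. The 12 markers (S100a8, S100a9, Csf3r, Cxcr2, Mmp9, Retnlg, Ly6g, Mmp8, Hdc, Trem1, Stfa2l1 and Il1f9) summed to 4.6 to 5.76 CPM in sham, where Ly6g, Stfa2l1 and Il1f9 were at 0, and to 18 to 27.9 CPM at 1 h. They summed to 886, 314 and 125 CPM at 6 h, 194, 49.2 and 851 CPM at 24 h, and 73.2 to 89.2 CPM at 72 h. Il1b stayed at 4.12% to 13.1% of the summed markers in all 18 libraries, over a range of its own level from 0.447 to 109 CPM. Il1rn was 0.658% to 3.3% of them from sham to 1 h, 3.45% to 4.2% at 6 h, 7.06% to 12.5% at 24 h and 12.1% to 14% at 72 h. Il1r2 was 0% to 2.06% up to 1 h, 4.18% to 5.71% at 6 h, 6.54% to 7.26% at 24 h and 3.15% to 4.51% at 72 h. Il1f9 is the symbol under which the table lists Il36g, so it is in both the neutrophil list and the family. The summed monocyte and macrophage markers ran in the order of the neutrophil markers at 6 h (570, 423 and 330 CPM). They did not at 24 h (698, 723 and 976 CPM). The summed cardiomyocyte markers ran in the reverse order at 6 h (74600, 80800 and 87900 CPM). At 24 h they were lowest in replicate 3 (58000, 53700 and 37800 CPM). The part of any of these marker lists in these results was not tested.

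**Figure D3:**
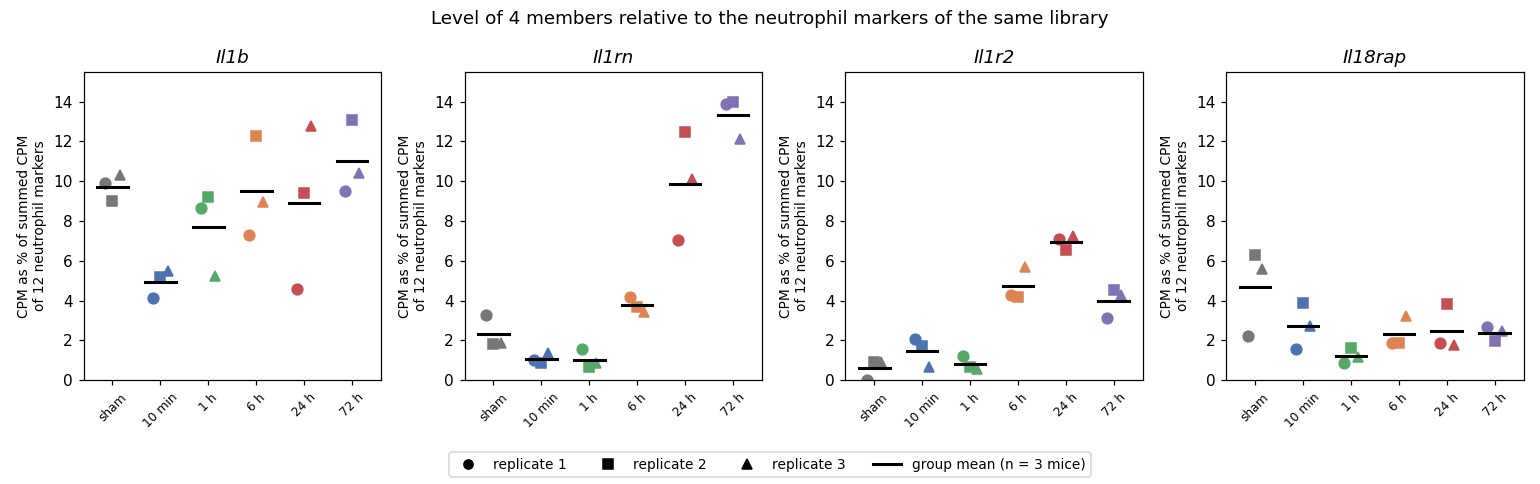
CPM of Il1b, Il1rn, Il1r2 and Il18rap as a percentage of the summed CPM of 12 neutrophil markers in the same library (linear axis); symbols are the 3 mice of each group and bars the group means. Il1b shows no steady trend, whereas Il1rn reaches 12.1% to 14% at 72 h after 0.658% to 1.56% at 1 h.

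The balance of agonist to inhibitor genes was read as ratios within a library, which do not depend on library scaling. The log2 ratio of Il1rn to Il1b, per kb of exon, was -3.44 ± 0.41 in sham (SD, n = 3), -4.31 ± 0.64 at 1 h, -2.84 ± 0.48 at 6 h, -1.3 ± 0.5 at 24 h and -1.25 ± 0.24 at 72 h. The 24 and 72 h libraries lay above all sham libraries, and the 6 h group overlapped with sham. The 1 h libraries lay below all sham libraries, on 2 to 9 Il1rn counts at 1 h and 2 to 3 in sham. The log2 ratio of Il1r2 to Il1r1 per kb was -6.96 ± 0.84 in sham, on 0 to 1 Il1r2 counts, and 0.13 ± 0.73 at 6 h, 0.73 ± 1.73 at 24 h and -2.57 ± 0.31 at 72 h. The decoy receptor gene was thus near the level of the signalling receptor gene at 6 h, between 0.88 and -0.59 in the libraries. At 24 h the libraries had 0.99, -1.12 and 2.31, so their mean stood for mice on both sides of equal levels.

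The log2 ratio of Il1rl1 to Il33 per kb was -2.74 ± 0.3 in sham (SD, n = 3). At 6 h it was -5.28 ± 0.32, at 24 h -3.66 ± 0.31 and at 72 h -5.16 ± 0.69. That of Il1b to Il1a was 2.85 ± 0.14 in sham, 6.33 ± 0.91 at 6 h, 4.1 ± 0.77 at 24 h and 4.44 ± 0.58 at 72 h, on 1 count of Il1a per sham library. In each of these ratios the 6, 24 and 72 h libraries did not overlap with sham. The exact two-sided permutation test of 3 libraries against 3 cannot go below p = 0.1, which it reached for the differences named as not overlapping (p = 0.133 adjusted over the 20 ratio comparisons), so this test can make no call on a ratio. No model over all 18 libraries was fitted to the ratios.

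**Figure D4:**
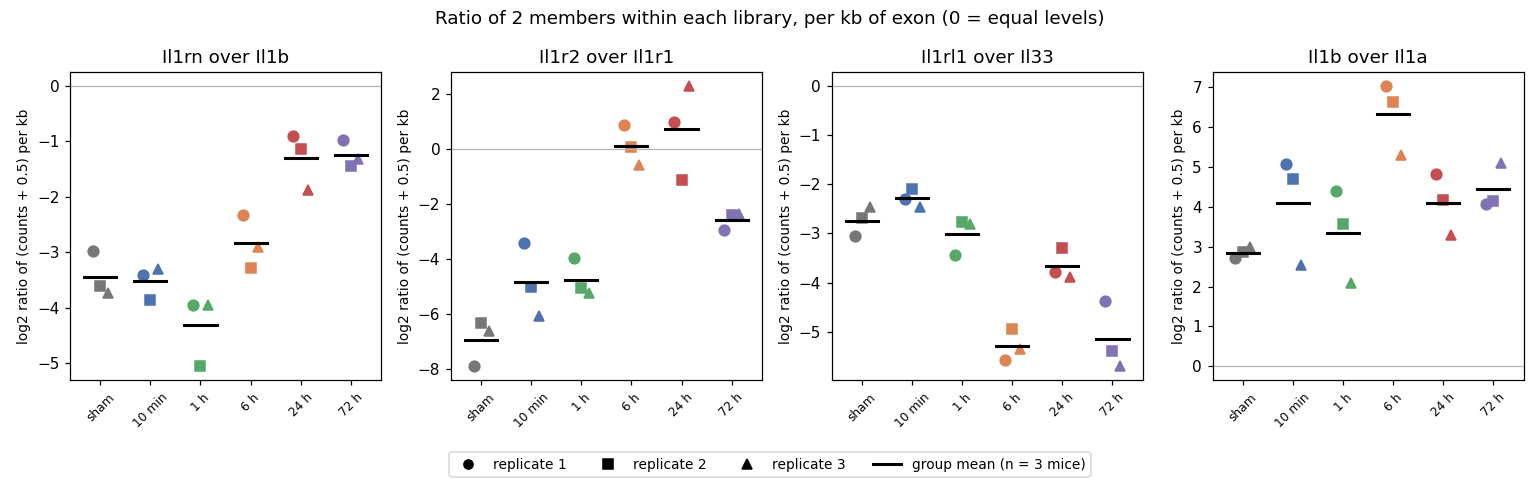
Log2 ratio of 2 members in each library, as (counts + 0.5) per kb of exon, for Il1rn over Il1b, Il1r2 over Il1r1, Il1rl1 over Il33 and Il1b over Il1a; symbols are mice, bars are group means and the grey line marks equal levels. Il1r2 over Il1r1 reaches 0.13 at 6 h and 0.73 at 24 h on average, from -6.96 in sham.

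The order of the group levels differed between members. For Il1rn, Il1r2 and Il18rap the lowest 3 groups were sham, 10 min and 1 h. No step between neighbours among these groups was called, though for Il1r2 the 1 h libraries did not overlap with sham. The test takes its spread from all 18 libraries, so it is not the spread of these early groups alone. The step from these groups to the 72 h group was called (edgeR adjusted p = 0.00278, 0.0242 and 0.0163). Of all genes, 66.9% were called between 1 and 72 h and 64.9% between 10 min and 72 h, so such a call is common. From 72 h up to 6 h (63% of all genes called), Il1r2 was the only member among Il1b, Il1rn and Il1r2 with a called step (edgeR adjusted p = 0.0187). For Il1b no step between neighbours in the order sham, 10 min, 1 h, 72 h, 6 h and 24 h was called. Its 1 h libraries lay above those of 10 min, though, and its 72 h libraries above those of 1 h. For Il18 the steps from 6 to 24 h (edgeR adjusted p = 0.00441) and from 24 to 72 h (edgeR adjusted p = 4.01e-05) were called. For Il33 the single called step was that from 24 h to 72 h. The step between the 72 h and 6 h means of 24.9 and 25.8 CPM was not called (edgeR adjusted p = 0.887). For Il1r1 the single called step was that from 24 h to 6 h, and for Il1a that from 72 h to 24 h. For Il1rap and Il1rl1 no step between neighbours was called.

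Over the 18 libraries, on log2 CPM, Il1r2 and Il18rap had a Pearson r of 0.98, Il1r2 with Il1b and with Il1rn 0.97 each, and Il33 with Il1r1 0.93. Il1rl1 had an r of 0.26 with Il1r2, its lowest, to 0.64 with Il33, its highest, and Il18 with Il18rap had 0.49. These are descriptions, since all libraries share the group structure. The genes most like Il1b were Trem1 (r = 0.985), a receptor of neutrophils and monocytes that is also in the marker list, Acod1 (0.976), which makes itaconate, and Il1f9 (0.974). The genes most like Il1r2 were Cxcr2 (0.988), Cd177 (0.979) and Plaur (0.976), and for Il18rap they were Cxcr2 (0.979), Tarm1 (0.979) and Plaur (0.978). Cxcr2 and Il1f9 are also among the neutrophil markers. Il1rn was most like Slc16a3 (0.994), a lactate exporter, Slfn1 (0.994) and Inhba (0.99). Il33 was most like Tgfbr2 (0.946), a TGF-beta receptor, Rlim (0.93) and Sowahc (0.927), and Il1r1 like Cnn3 (0.972), Lima1 (0.964) and Plat (0.964), the tissue plasminogen activator. Il18 was most like Cks1b (0.984), Hps1 (0.984) and Slc7a8 (0.978), Il1a like Tnf (0.919), Sema4a (0.912) and Gsr (0.911), and Il1rap like Chst11 (0.963), Tlr2 (0.956) and Mapk6 (0.956). Il1rl1 had no close match, with Tmem151a first at 0.737, then Zfp516 (0.709) and Med22 (0.708).

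Of the 11 other ligands and receptors of the family listed, 7 were in the count table and 5 passed the filter. Il36g, an IL-36 ligand, had 0 counts in every sham library, 12 to 140 at 6 h, 11 to 197 at 24 h and 14 to 30 at 72 h, and was called at 6 h (edgeR adjusted p = 0.00867) and 24 h (edgeR adjusted p = 0.00541). Its receptor gene Il1rl2, between Il1r1 and Il1rl1 on chromosome 1, rose from 2.62 ± 0.481 CPM in sham (SD, n = 3) to 4.33 ± 1.17 CPM at 6 h (edgeR adjusted p = 0.023) and 11.5 ± 0.529 CPM at 72 h (edgeR adjusted p = 1.05e-07). Sigirr, an inhibitory receptor of the family, was lower at 6 h (6.79 ± 1.27 against 10.4 ± 1.28 CPM, log2 fold change -0.62; adjusted p = 0.00343 by edgeR), at 24 h (-0.44) and at 72 h (-0.6). Il18bp, which encodes the soluble IL-18 trap, was not called at any time, with 7.79 ± 0.777 CPM in sham and 8.21 ± 0.546 CPM at 72 h. Il36rn and Il1rapl1 had at most 2 counts in any library.

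Of 20 genes of IL-1 receptor signalling, 7 were higher and 1 lower than sham at 6 h, 5 and 1 at 24 h, and 7 and 7 at 72 h. Of all genes, 28.4%, 43.8% and 66.4% were called at these times, so the 14 called at 72 h are near the share of all genes and the 6 at 24 h below it. The median log2 fold change was 0.23, 0.15 and 0.17 at these times, beside -0.01, 0.01 and 0.03 for all genes. At 72 h Irak4, the kinase next to Myd88, was 18.3 ± 1.09 CPM against 5.93 ± 0.678 CPM in sham (SD, n = 3; log2 fold change 1.63; adjusted p = 7.59e-08 by edgeR). Myd88, the adaptor, was 29.1 ± 2.29 against 9.82 ± 0.593 CPM (1.56, edgeR adjusted p = 7.52e-07). Tollip, a negative regulator of this signal, was lower, at 54.2 ± 2.87 against 86.2 ± 4.09 CPM (-0.67, edgeR adjusted p = 4.18e-06). Myd88 had reached 30.2 ± 4.17 CPM at 6 h, whereas Irak4 was 8.35 ± 1.79 CPM then.

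The genes that mature and release IL-1 beta and IL-18 were called 5 higher and 1 lower of 15 tested at 6 h, 10 and 0 at 24 h, and 12 and 0 at 72 h (median log2 fold change -0.05, 0.49 and 1.89, beside -0.01, 0.01 and 0.03 for all genes). The share of all genes called also grew, from 28.4% to 43.8% and 66.4%, and that called higher from 16.3% to 23.7% and 34.2%. Casp1, the protease of the inflammasome, was the gene called lower at 6 h, with 2.18 ± 0.104 CPM against 3.07 ± 0.462 CPM in sham (SD, n = 3; log2 fold change -0.49; adjusted p = 0.0376 by edgeR). It was 13.4 ± 1.31 CPM at 72 h (2.13, edgeR adjusted p = 1.97e-09). P2rx7, the ATP-gated channel that triggers IL-1 beta release, had 3.48 ± 0.401 CPM at 6 h and 21.3 ± 0.528 CPM at 72 h against 4.47 ± 1.4 CPM in sham (2.24 at 72 h, edgeR adjusted p = 3.03e-09). Casp8 was higher at 72 h (38.8 ± 4.03 against 10.5 ± 0.728 CPM, 1.89, edgeR adjusted p = 2.83e-07). Nlrp3, the inflammasome sensor, named after its values were seen, was called at 6 h with 7.27 ± 6.62 CPM against 0.552 ± 0.187 CPM (3.69, edgeR adjusted p = 0.00857). Il1b and Nlrp3 were above sham at 6 h, when Casp1 was below it. The summed macrophage markers were also higher at 24 and 72 h, as given beside Il18, and their part was not tested.

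Of 19 tested genes that IL-1 is known to induce in stromal and endothelial cells, 2 were called at 1 h, namely Cxcl1 and Nfkbiz, and 18, 16 and 13 at 6, 24 and 72 h, all higher (of all genes, 16.3%, 23.7% and 34.2% were called higher at the last 3 times). Their median log2 fold change was 1.39, 4.4, 4.02 and 2.15 at these times, and that of all genes between -0.01 and 0.03. The 12 neutrophil markers moved with them, 12, 11 and 7 being called higher at 6, 24 and 72 h, and their part in these counts was not tested. Other signals, TNF and Toll-like receptors among them, also induce these genes. Cxcl1, a neutrophil chemokine gene, had 20.5 ± 1.74 CPM at 1 h against 1.32 ± 0.145 CPM in sham (SD, n = 3; log2 fold change 3.96; adjusted p = 0.0323 by edgeR). At 6 h Lcn2, which encodes a siderophore-binding protein that neutrophils also store, had 169 ± 5.52 CPM against 2.83 ± 0.463 CPM (5.9, edgeR adjusted p = 1.6e-06). Sele, the endothelial selectin, had 20.3 ± 9.21 against 1.53 ± 0.636 CPM (3.72, edgeR adjusted p = 7.41e-06), and the chemokine gene Cxcl5 84.5 ± 32.6 against 0.244 ± 0.0516 CPM (8.4, edgeR adjusted p = 1.97e-05). By 72 h Lcn2 was at 6.38 ± 0.995 CPM and Sele at 3.07 ± 0.509 CPM.

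**Figure D5:**
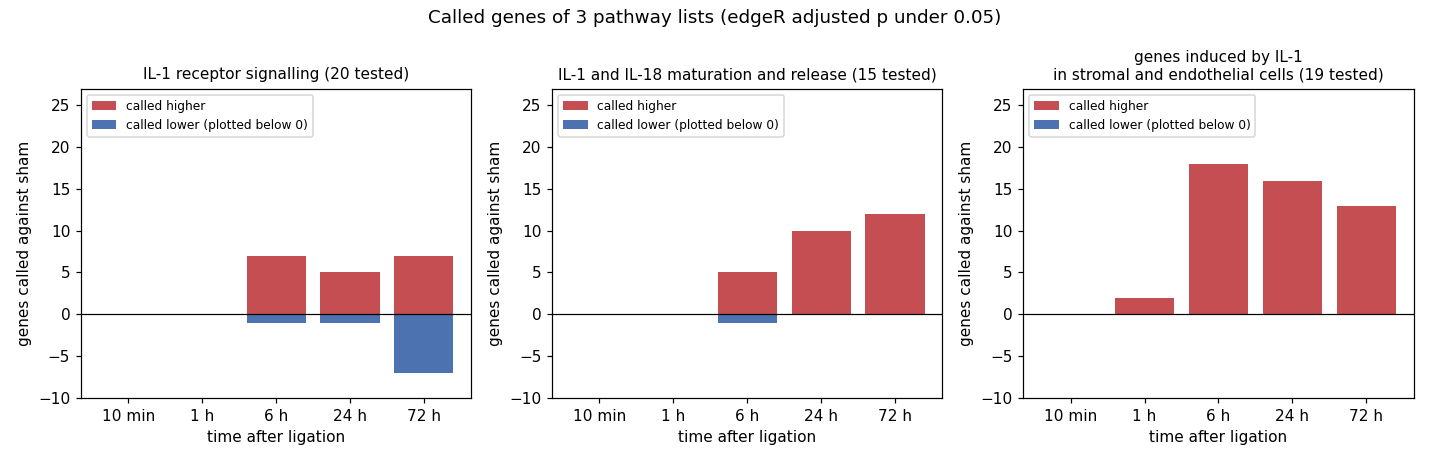
Number of genes called against sham at each time (edgeR adjusted p under 0.05), upward for higher and downward for lower, in 3 lists of 20, 15 and 19 tested genes. Genes induced by IL-1 have 18 calls at 6 h and 13 at 72 h, and maturation genes 6 and 12, while the share of all genes called goes from 28.4% at 6 h to 66.4% at 72 h.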

How the data were processed

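Poly(A) RNA of 18 mouse left ventricles (6 groups of 3) was sequenced, 1 library per mouse. Per the submitters' processing notes, cutadapt 1.18, HISAT2 2.1.0, featureCounts and the build mm10 were used; strand use and annotation are not given in the sources used here. The authors deposited whole-number read counts per Ensembl gene and, for the same libraries, FPKM (scaled per kb of exon and per library total). Exon lengths behind the deposited FPKM equalled those of GENCODE M21 for 27781 of 30244 genes (91.9%) and for all 10 members. In the 6 h group, the deposited FPKM of replicates 2 and 3 were interchanged relative to the counts, so FPKM served only for alternatives between groups. No columns were left unmatched (0).

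For the main tests, edgeR 4.0.16 (in R 4.3.3) was run on the deposited counts. Of 30583 genes, filterByExpr removed 14272 and left 16311, and libraries were scaled by TMM. A robust quasi-likelihood model over all 18 libraries had 1 mean per group (biological coefficient of variation 0.149) and tested two-sided with glmQLFTest. P-values were adjusted by Benjamini-Hochberg over all genes tested and called under 0.05. CPM are TMM-scaled. Ratios of summed counts have exact 95% intervals. Contrasts were those of each time with sham and of each time with its predecessor, and, for the order of a member's levels, those of groups next to each other in that order. Alternatives were DESeq2 1.42.0, limma 3.58.1 on log2 FPKM, other scalings and filters, a replicate block and leaving out each library. The procedure was tested on simulated counts for 6 h against sham, with 200 genes of higher mean count changed 2-fold or 4-fold. It recovered 85% and 98% of them, with 8 false calls among 15280 genes tested. Only these folds were tried, so larger ones from sham levels near 0, as for Il1r2, were not covered. Depth of 18.2 to 25.1 M counts makes 1 count about 0.05 CPM. Pathway genes were named by rank (the 3 lowest adjusted p of a list, taken where it had most calls, with a mean of at least 10 counts), as were the 3 genes most correlated with each member. Members, lists and tests were chosen with earlier results of these data known. Symbols came with GENCODE (30512 of 30583 genes) and older symbols from RefSeq.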

Additional observations from a re-analysis of the deposited data

Results flagged for a closer look

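The change from 1 time to the next differed from 0 by edgeR's test, so that the difference from sham was not the same at both times, for these members. Between 1 and 6 h the log2 steps were 4.45 for Il1b, 6.08 for Il1rn, 6.56 for Il1r2, 5.07 for Il18rap, 2.91 for Il33 and 1.44 for Il1r1. All 6 were increases, and the group of 3 libraries at 6 h lay above that at 1 h in each. Of all genes, 24.5% were called for this step, 14.5% higher. These members were picked by calls from the same libraries. The share of all genes without overlap was not counted for any step, so overlap, here and below, is a description only.

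Between 6 and 24 h the steps were 3.37 for Il1a, 1.5 for Il18, -0.73 for Il1r1 and -2.06 for Il33. The Il1a step rested on replicate 3 at 24 h, without which it was -0.44. The Il1r1 groups overlapped, whereas those of Il18 and Il33 did not.

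Between 24 and 72 h the steps were 1.15 for Il1r1, 1.76 for Il18, 2.01 for Il33, -3.11 for Il1a, -2.96 for Il1r2 and -1.78 for Il18rap. The groups of the 3 members that rose did not overlap, and those of the 3 that fell did, because 1 or 2 of the 24 h libraries lay near the 72 h range.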

How the results depend on the processing

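Of 741 values of single members under the alternatives, 657 kept their direction and their side of the threshold, 59 kept the direction but lost the call, 15 gained a call and 10 reversed. Requiring at least 10 counts in every library left 3 members to test (Il1r1, Il1rap and Il33), so fewer were called: 3 at 6 h, 1 at 24 h and 3 at 72 h against sham, 2 from 1 to 6 h, 2 from 6 to 24 h, 2 from 24 to 72 h, and 3 at any time. Of the 12937 genes tested there, 4168, 6256 and 9016 were called at 6, 24 and 72 h. For these steps it was 3655, 4227 and 7037, and at any time 10725. From 6 to 24 h, 4 members were called in the main analysis, 2 with no filter, 2 by limma on log2(FPKM + 1), 2 by limma on log2(FPKM + 0.1) and 1 with only the libraries of both groups. In the same order, 4541, 3815, 6475, 6757 and 1024 genes were called, of 16311, 30583, 16311, 16311 and 14810 tested. With only the libraries of the groups compared, 1 member was called at 1 h against sham in place of 0, and 3 in place of 6 from 24 to 72 h. In these fits 190 of 14533 genes and 6648 of 15767 genes were called. The causes were not tested.

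Leaving out each library in turn gave 6 to 8 members called at 6 h, 6 to 8 at 24 h and 8 to 9 at 72 h. Of all genes, 2926 to 5319, 5466 to 7566 and 10056 to 11302 were called at these times. From 1 to 6 h, 5 to 7 members were called (2481 to 4712 genes). From 6 to 24 h it was 2 to 5 (3607 to 5028 genes), with 2 without replicate 1 at 6 h. From 24 to 72 h it was 3 to 8 (7087 to 8496 genes), with 3 without replicate 3 at 24 h. Over these fits Il1rl1 at 6 h ranged from -0.05 (without sham replicate 1, or without replicate 2 of the 6 h group) to 0.44, Il1a from -0.44 to 3.95 between 6 and 24 h and from -3.69 to 0.69 between 24 and 72 h. Between 24 and 72 h, Il1b was 0.45 and Il1rn 0.16 once replicate 3 of the 24 h group was left out. Leaving out replicate 1 of the 6 h group as well gave -0.25 for Il1a between 6 and 24 h and 0.69, 0.45 and 0.16 for Il1a, Il1b and Il1rn between 24 and 72 h. Without replicate 2 at 24 h, the falls of Il1b (-2.67) and Il1rn (-2.17) from 24 to 72 h were called. Il1b from 24 to 72 h was also called without replicate 1 at 24 h (-2.61).

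Libraries of the same replicate number were not treated as paired in the main fit. Of 45 pairs of same-numbered libraries, 4 had deviations correlated over 0.1 (range -0.256 to 0.252), and 20 were the best match of their number. Among the 10 min, 1 h and 6 h groups every same-numbered pair was the best match, with r of 0.035 to 0.105. Whether replicate numbers stand for a shared batch was not tested. With a replicate block, 6, 6 and 8 members were called at 6, 24 and 72 h, 3 from 6 to 24 h and 4 from 24 to 72 h. Of all 16311 genes, 4540, 7091 and 10784 were called at these times and 4451 and 8147 for these steps. The calls lost were those of Il1rap at 6 h (edgeR adjusted p = 0.0532) and 24 h (0.0541), Il1a from 6 to 24 h (0.13) and from 24 to 72 h (0.137) and Il18rap from 24 to 72 h (0.0547). Depth limits Il1a, Il1rn, Il1r2 and Il18 in sham, at 0 to 6 counts per library.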
